A study of Mus musculus with 72 samples.

Results

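The 10 genes described here were chosen in pancreatic islets of 3 mouse strains because their mean levels under a high-fat diet (HFD) and under regular chow (RC) differed in one direction at every strain and day. They are Tcim, Thbd and Matn2, which were lower under HFD, and Pik3r5, Cd164l2, Net1, Efnb3, Fxyd6, Slc8a2 and Pim3, which were higher. They are 10 of the 14604 genes of the deposited table. They were picked from the 147 genes (1.01%) with one sign in all 9 HFD minus RC differences. The pick was meant to lie outside the circadian clock and the extracellular matrix programmes, yet Matn2 encodes a matrix protein. Another 851 genes (5.83%) had one sign in 8 of the 9. The direction under HFD is therefore how the genes were chosen, and their HFD minus RC values are given as a description with no test.

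The mice were BALB/cJ, C57BL/6J and DBA/2J males, aged 8 weeks by their labels, fed HFD or RC for 5, 13 or 33 days. No genotype beyond the strain, no agent and no diet composition is given in the labels. Islets were freed by Liberase digestion, picked by hand and kept overnight in culture, so each library reports on 120 to 150 islets of 1 mouse after that culture and not on freshly taken tissue. The 69 libraries, 35 HFD and 34 RC, formed 18 groups of strain, diet and day, of which 15 held 4 libraries. The RC groups of DBA/2J and C57BL/6J at day 33 and the HFD group of DBA/2J at day 13 had 3.

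Levels are log2 CPM, where CPM is read counts scaled to a common library total, with 12292621 to 34591079 reads per library in the genes of the table (median 22756199). The tissue matched its label: Ins2 ranged from 16.21 to 17.40 log2 CPM and Gcg, the glucagon gene, from 14.05 to 15.86. Markers of cells that accompany islets were present as well, among them Pecam1 of endothelium (5.29 to 6.83), Col1a2 of stellate cells and fibroblasts (3.26 to 6.61) and Cpa1 of acinar cells (5.00 to 12.12). In such bulk libraries fewer cells of a type and less RNA per cell cannot be told apart, which holds for every difference below. Throughout, a gene is called when its p-value from limma, adjusted over all 14604 genes by the Benjamini-Hochberg method, is under 0.05.

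Islets meet a rise in dietary fat by releasing more insulin and, over weeks, by adding beta-cell mass. Release depends on calcium entry and its removal by pumps and exchangers, on the sodium gradient that the sodium pump maintains, and on the actin cytoskeleton that small GTPases remodel. Signals from hormone receptors pass through phosphoinositide 3-kinases (PI3K) and downstream kinases, while ephrins and Eph receptors carry signals between touching cells. Capillaries, with their endothelium and matrix, run through every islet, and the 10 genes touch each of these processes.

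RefSeq promoter windows (GRCm38.p6) were matched for 6 of the 10 genes, in 7 windows: Cd164l2, Slc8a2, Fxyd6, Pik3r5, Pim3 and both starts of Net1. Tcim, Efnb3, Thbd and Matn2 were not matched. The windows of Net1, Pim3, Slc8a2 and Fxyd6 are printed as examples of windows that differ in the motifs they hold. Each runs over the 250 bases before the start, 5′ to 3′ on the gene's strand, in lower case with motif matches in capitals. The motifs searched on both strands were the E-box CACGTG, the CCAAT box CCAAT, the GC box GGGCGG, the cAMP response element TGACGTCA and the TATA box TATAAA, none of which contains another.
Net1, inner start, chr13:3893582-3893831, minus strand: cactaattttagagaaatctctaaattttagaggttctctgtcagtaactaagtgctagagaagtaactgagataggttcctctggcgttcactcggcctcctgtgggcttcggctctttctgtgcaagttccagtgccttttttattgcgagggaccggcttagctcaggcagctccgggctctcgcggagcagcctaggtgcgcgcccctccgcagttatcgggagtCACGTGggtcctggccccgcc
Pim3, chr15:88861944-88862193, plus strand: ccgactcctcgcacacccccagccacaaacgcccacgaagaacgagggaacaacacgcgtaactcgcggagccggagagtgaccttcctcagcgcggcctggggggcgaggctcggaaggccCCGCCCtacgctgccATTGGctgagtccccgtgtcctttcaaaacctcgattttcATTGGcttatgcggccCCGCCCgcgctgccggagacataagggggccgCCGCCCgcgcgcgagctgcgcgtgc
Slc8a2, chr7:16129576-16129825, plus strand: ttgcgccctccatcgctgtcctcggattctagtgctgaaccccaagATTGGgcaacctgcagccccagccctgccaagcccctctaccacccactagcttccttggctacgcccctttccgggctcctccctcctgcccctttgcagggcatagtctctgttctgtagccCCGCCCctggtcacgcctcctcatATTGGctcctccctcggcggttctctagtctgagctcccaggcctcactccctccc
Fxyd6, chr9:45369935-45370184, plus strand: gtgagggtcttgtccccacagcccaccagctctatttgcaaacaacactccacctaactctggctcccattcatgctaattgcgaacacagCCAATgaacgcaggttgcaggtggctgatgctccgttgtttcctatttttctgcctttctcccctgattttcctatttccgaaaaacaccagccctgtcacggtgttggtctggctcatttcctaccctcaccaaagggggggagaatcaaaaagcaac

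The inner start of Net1 holds 1 E-box, which occurs in 1 of the 7 windows and in 6.02% of the 32851 promoters searched. Pim3 has 2 CCAAT boxes and 3 GC boxes, Slc8a2 has 2 CCAAT boxes and 1 GC box, and Fxyd6 has 1 CCAAT box. CCAAT boxes occurred in 4 of the 7 windows against 33.85% of all promoters, and GC boxes in 4 of 7 against 32.74%. The TATA box (12.37% of promoters) and the cAMP response element (1.55%) were found in 0 of the 7. The matches describe letters in these windows and were not tied to any factor.

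Per kilobase of exon, Fxyd6 was the most abundant of the 10, at 4.58 ± 0.70 log2 CPM per kb (SD, n = 69), and Pik3r5 the least, at -0.06 ± 0.41. Between them came Tcim (3.76 ± 0.47), Pim3 (3.47 ± 0.27), Thbd (2.90 ± 0.41), Cd164l2 (2.70 ± 0.68), Efnb3 (2.53 ± 0.25), Net1 (1.82 ± 0.29), Matn2 (1.57 ± 1.00) and Slc8a2 (0.84 ± 0.31). The SDs span all strains, diets and days, and the order is that of the pooled means. In BALB/cJ it was not kept: Fxyd6 was at 3.91 log2 CPM per kb there and Tcim at 3.92, and Matn2, at 0.36, lay below Slc8a2, at 0.90. Within this order, Tcim and Pim3, Thbd and Cd164l2, Cd164l2 and Efnb3, Net1 and Matn2, and Matn2 and Slc8a2 lay closer together than the larger SD of the pair.

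**Figure D1:**
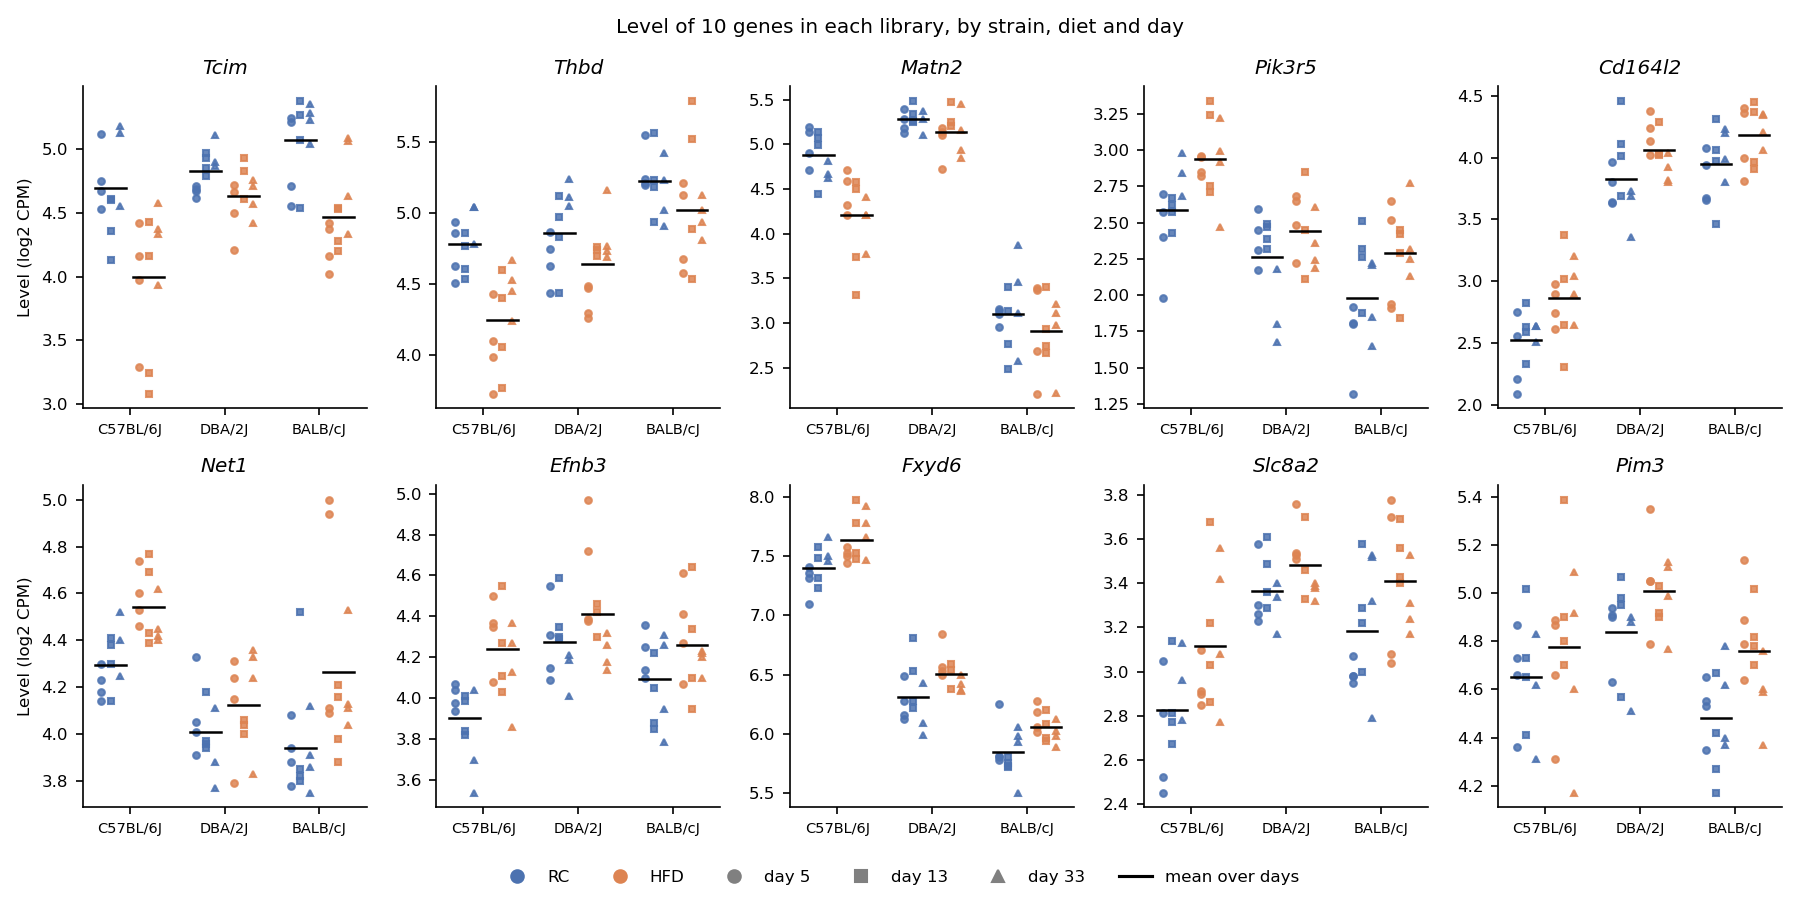
Level of each of the 10 genes (y axis, log2 CPM, own scale per gene) in each of the 69 libraries, by strain (x axis), diet (colour) and day (symbol), with the mean over days as a black line. In every strain the HFD mean lies below the RC mean for Tcim, Thbd and Matn2 and above it for the other 7, while single libraries of both diets overlap in most panels.

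Tcim had the largest average difference between diets of the 10. The gene (ENSMUSG00000056313.5, GRCm38 chromosome 8, 24437180 to 24438984, minus strand) encodes a small protein that binds Chibby and thereby frees beta-catenin for transcription. In C57BL/6J its level ranged from 4.13 to 5.18 under RC (median 4.61) and from 3.08 to 4.58 under HFD (median 4.16). BALB/cJ libraries lay between 4.54 and 5.38 under RC (median 5.22) and between 4.02 and 5.09 under HFD (median 4.39). In DBA/2J the diets were closer, with 4.62 to 5.11 under RC (median 4.85) and 4.21 to 4.93 under HFD (median 4.66). The ranges overlapped in each strain over all days, and the low HFD values of C57BL/6J reached more than 1 log2 unit below any RC library of that strain.

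The HFD minus RC difference of Tcim averaged -0.51 ± 0.07 (SE) on the log2 scale, or 0.704-fold. By strain it was -0.72 in C57BL/6J, -0.20 in DBA/2J and -0.60 in BALB/cJ. At day 5 the C57BL/6J values were 3.29, 3.97, 4.16 and 4.42 under HFD against 4.53, 4.67, 4.75 and 5.12 under RC, the widest of its 9 pairs at -0.81. At day 13 the DBA/2J values were 4.61, 4.83 and 4.93 under HFD against 4.79, 4.85, 4.93 and 4.97 under RC, the narrowest at -0.10. The libraries of the 2 diets did not overlap in 3 of the 9 pairs. Overlap, here and for the genes below, describes the same values that chose the genes. How often it is absent among all genes was not counted.

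Pik3r5, Pim3 and Net1 carry signals inside the cell. Pik3r5 (chromosome 11, 68432121 to 68497849, plus strand) encodes p101, the regulatory subunit through which G protein-coupled receptors switch on PI3K gamma. Its level in C57BL/6J was 1.98 to 2.98 under RC (median 2.62) and 2.47 to 3.34 under HFD (median 2.94). In BALB/cJ it was 1.32 to 2.51 under RC (median 1.90) and 1.84 to 2.77 under HFD (median 2.30). The average difference was 0.28 ± 0.06 (1.22-fold), and it ran from 0.0057 in BALB/cJ at day 13 to 0.54 in BALB/cJ at day 5. A difference of 0.0057 is a sign and no more than that: the BALB/cJ day 13 values were 1.84, 2.29, 2.42 and 2.45 under HFD and 1.88, 2.26, 2.32 and 2.51 under RC, which interleave.

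Pim3 (chromosome 15, 88862186 to 88865726, plus strand) is a serine/threonine kinase that is active without upstream phosphorylation and has been described as a brake on glucose-stimulated insulin release. The highest of its 3 strain differences was in BALB/cJ at 0.28, with 4.17 to 4.78 under RC (median 4.47) and 4.37 to 5.14 under HFD (median 4.77). C57BL/6J had the lowest at 0.13, and its 5-day groups barely parted, with 4.31, 4.66, 4.87 and 4.89 under HFD against 4.36, 4.66, 4.73 and 4.87 under RC. Over all pairs Pim3 was 0.19 ± 0.05 higher under HFD (1.14-fold). One pair of 9 had no overlap, BALB/cJ at day 13, with 4.70, 4.78, 4.82 and 5.02 under HFD and 4.17, 4.27, 4.42 and 4.67 under RC.

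Net1 (chromosome 13, 3882018 to 3918220, minus strand) is a guanine nucleotide exchange factor that activates RhoA. In C57BL/6J the RC libraries ran from 4.14 to 4.52 (median 4.30) and the HFD libraries from 4.39 to 4.77 (median 4.49). BALB/cJ held its widest difference, 0.62 at day 5, where HFD values were 4.09, 4.11, 4.94 and 5.00 and RC values 3.78, 3.88, 3.94 and 4.08. The 4 HFD libraries all lay above the 4 RC libraries there; 2 of them were close to the RC values and 2 far above. At day 13 in DBA/2J the difference was 0.03. Averaged over the 9 pairs Net1 differed by 0.22 ± 0.05 (1.17-fold).

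Efnb3 and Cd164l2 sit at the cell surface. Efnb3 (chromosome 11, 69554092 to 69560205, minus strand) is ephrin-B3, a transmembrane ligand of Eph receptors. Its C57BL/6J levels were 3.54 to 4.07 under RC (median 3.98) and 3.86 to 4.55 under HFD (median 4.27), a difference of 0.35 in that strain against 0.15 in DBA/2J and 0.16 in BALB/cJ. The average was 0.22 ± 0.05 (1.16-fold). Its narrowest pair, 0.01, was DBA/2J at day 13, where HFD values of 4.30, 4.42 and 4.46 fell inside the RC range of 4.29, 4.30, 4.35 and 4.59.

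Cd164l2 (chromosome 4, 133212131 to 133224555, plus strand) encodes a membrane protein related to the sialomucin CD164. In DBA/2J at day 5 it stood at 4.02, 4.13, 4.24 and 4.38 under HFD and at 3.63, 3.64, 3.80 and 3.96 under RC, its widest pair at 0.44. The day 33 groups of C57BL/6J and DBA/2J were also free of overlap. Its strain averages were close to each other, 0.33 in C57BL/6J, 0.26 in DBA/2J and 0.24 in BALB/cJ, and 0.28 ± 0.06 over all (1.21-fold).

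Fxyd6 and Slc8a2 handle sodium and calcium. Fxyd6 (chromosome 9, 45370185 to 45396159, plus strand) is a small membrane protein of the FXYD family, which tunes the sodium pump. Its differences were the most even of the 10 by strain, 0.22 in C57BL/6J, 0.21 in DBA/2J and 0.22 in BALB/cJ, and averaged 0.22 ± 0.04 (1.16-fold). At day 13 in BALB/cJ the HFD values of 5.94, 5.96, 6.08 and 6.20 lay above the RC values of 5.72, 5.73, 5.75 and 5.80. C57BL/6J and DBA/2J at day 5 also had no overlap, whereas DBA/2J at day 13 differed by 0.05.

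Slc8a2 (chromosome 7, 16129826 to 16161063, plus strand) is the sodium-calcium exchanger NCX2, which moves calcium out of the cell. It was 0.21 ± 0.05 higher under HFD on average (1.15-fold), yet in 0 of the 9 pairs were the diets free of overlap. BALB/cJ carried both ends of its range. At day 5 the HFD values were 3.04, 3.08, 3.70 and 3.78 against 2.95, 2.98, 2.98 and 3.07 under RC, a difference of 0.40. At day 33 they were 3.17, 3.24, 3.31 and 3.53 against 2.79, 3.32, 3.52 and 3.53, a difference of 0.02, with 3 RC libraries above the HFD median.

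Thbd and Matn2, both lower under HFD, belong to vessels and matrix. Thbd (chromosome 2, 148404466 to 148408188, minus strand) is thrombomodulin, the endothelial receptor that turns thrombin towards activating protein C. C57BL/6J levels were 4.51 to 5.04 under RC (median 4.78) and 3.73 to 4.67 under HFD (median 4.32). Its average difference was -0.33 ± 0.06 (0.797-fold), with -0.55 in C57BL/6J, -0.23 in DBA/2J and -0.20 in BALB/cJ. The pair at C57BL/6J day 5 was the widest, -0.67, with 3.73, 3.99, 4.10 and 4.43 under HFD below 4.51, 4.63, 4.86 and 4.94 under RC. In BALB/cJ at day 13 the difference was -0.05, and the HFD values of 4.54, 4.89, 5.52 and 5.79 reached both below and above the RC values of 4.94, 5.18, 5.23 and 5.56.

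Matn2 (chromosome 15, 34306677 to 34436273, plus strand) is matrilin-2, an adaptor protein of extracellular filaments and basement membranes. Under RC the C57BL/6J libraries ranged from 4.44 to 5.19 (median 4.91), and under HFD from 3.31 to 4.72 (median 4.27). The difference in that strain was -0.65, against -0.13 in DBA/2J and -0.19 in BALB/cJ, and -0.32 ± 0.08 over all (0.799-fold). At C57BL/6J day 13 the HFD values were 3.31, 3.74, 4.50 and 4.58 and the RC values 4.44, 4.99, 5.07 and 5.14, the widest pair at -0.88. At BALB/cJ day 13 the difference was -0.01, with values of 2.67, 2.74, 2.93 and 3.41 under HFD and 2.49, 2.77, 3.14 and 3.41 under RC.

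**Figure D2:**
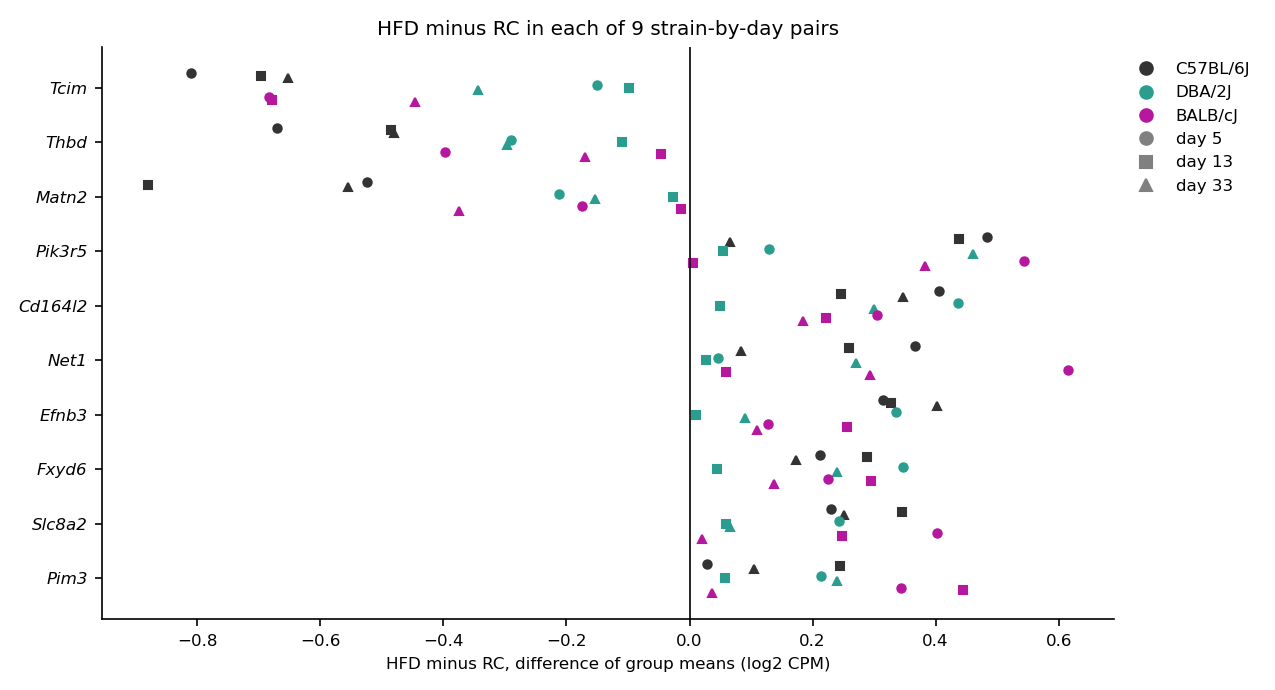
HFD minus RC difference of group means (x axis, log2 CPM) for each gene (y axis) in the 9 pairs of strain (colour) and day (symbol). All points of a gene lie on one side of 0 because that rule chose the genes, and the DBA/2J day 13 points (green squares) lie close to 0, from -0.11 to 0.06.

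The size of the differences was uneven across pairs. The median of the 10 absolute differences was 0.39 in C57BL/6J at day 5 and 0.37 in BALB/cJ at day 5, against 0.05 in DBA/2J at day 13, where the HFD group had 3 libraries. In C57BL/6J at day 5 HFD and RC libraries shared no sample title number, so diet and that number cannot be told apart. DBA/2J day 13 held the smallest difference of 5 of the genes and BALB/cJ day 13 that of 3. With 1 library left out at a time, only Tcim kept one sign in the 9 pairs in all 69 removals. Pim3 kept it in 60, Matn2 in 61, Pik3r5 in 62, Efnb3 in 64 and Slc8a2 in 65. Net1 and Thbd kept it in 66, and Cd164l2 and Fxyd6 in 67. Just outside the rule were the 851 genes with one sign in 8 of 9 pairs. Those called between diets were ranked by average, leaving out predicted, Rik and non-coding genes and the lowest 25% by level. The highest averages were those of Dbp (0.93) and Per3 (0.69), the lowest those of Arntl (-0.75) and Nfil3 (-0.73), all clock genes. The odd pair of the other genes was not counted. In each of the 4 named clock genes the odd pair was DBA/2J at day 13, at -0.56, -0.61, 0.38 and 0.55.

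Strain set the level of several of the 10 genes far apart, a comparison that did not enter their choice. In DBA/2J against C57BL/6J, 10 of 10 were called, where 68% of all genes were. In BALB/cJ against C57BL/6J 8 of 10 were called (67.2% of all genes), and in BALB/cJ against DBA/2J 6 of 10 (48.5%). Most genes of the table differed in the first 2 of these comparisons, so the counts are near the background and the sizes are given here. The submitters' notes name only GRCm38, an assembly of C57BL/6J, so differences in sequence and in expression cannot be told apart in these comparisons.

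Fxyd6 was highest in C57BL/6J, at 7.53 ± 0.21 (SD, n = 23; 7.10 to 7.98), then DBA/2J, at 6.41 ± 0.22 (n = 22; 5.99 to 6.84), then BALB/cJ, at 5.95 ± 0.19 (n = 24; 5.50 to 6.28). No library of C57BL/6J overlapped those of the other strains. The difference was -1.12 ± 0.05 for DBA/2J minus C57BL/6J (SE, adjusted p = 8.71e-29) and -1.57 ± 0.05 for BALB/cJ minus C57BL/6J (adjusted p = 8.21e-37). DBA/2J and BALB/cJ differed by -0.45 ± 0.05 (adjusted p = 5.17e-12), and their ranges met. Each of these exceeded the 0.22 between diets.

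Cd164l2 had the reverse order. C57BL/6J stood at 2.70 ± 0.31 (2.09 to 3.37), DBA/2J at 3.94 ± 0.27 (3.36 to 4.46) and BALB/cJ at 4.07 ± 0.27 (3.46 to 4.45). DBA/2J exceeded C57BL/6J by 1.24 ± 0.07 (adjusted p = 1.03e-22) and BALB/cJ did so by 1.37 ± 0.07 (adjusted p = 3.02e-25). The highest C57BL/6J library, at 3.37, just reached the lowest of DBA/2J. BALB/cJ minus DBA/2J was 0.13 ± 0.07 and missed the threshold (adjusted p = 0.13).

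Matn2 separated BALB/cJ from both other strains. Its BALB/cJ level was 3.01 ± 0.40 (2.21 to 3.88), against 4.53 ± 0.48 in C57BL/6J (3.31 to 5.19) and 5.21 ± 0.19 in DBA/2J (4.72 to 5.49). The BALB/cJ and DBA/2J libraries did not overlap. BALB/cJ minus DBA/2J was -2.21 ± 0.10 (adjusted p = 1.56e-28), BALB/cJ minus C57BL/6J was -1.53 ± 0.09 (adjusted p = 1.65e-21) and DBA/2J minus C57BL/6J was 0.68 ± 0.10 (adjusted p = 2.00e-08). The summed level of the stellate cell and fibroblast markers was instead highest in BALB/cJ. Its RC median was 504.8 CPM there against 368.8 in DBA/2J and 303.5 in C57BL/6J. Between DBA/2J and C57BL/6J, Matn2 and these markers ran the same way.

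**Figure D3:**
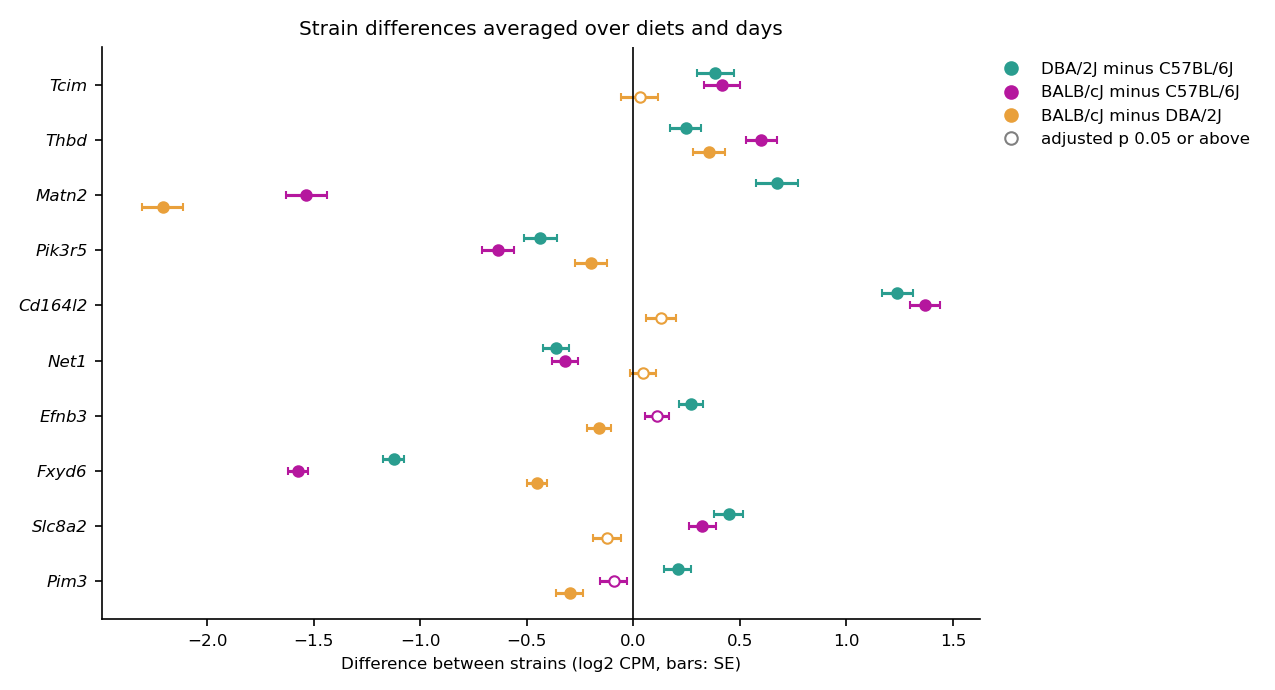
Difference between strains (x axis, log2 CPM, averaged over both diets and 3 days, bars show the SE) for each gene (y axis). Filled circles passed the adjusted threshold, and Matn2, Cd164l2 and Fxyd6 hold the differences beyond 1 log2 unit, from -2.21 to 1.37.

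The other genes differed by less between strains. Pik3r5 was highest in C57BL/6J, with DBA/2J at -0.44 ± 0.08 from it and BALB/cJ at -0.64 ± 0.07 (adjusted p = 5.70e-11). Net1 was also highest there, with -0.36 ± 0.06 in DBA/2J and -0.32 ± 0.06 in BALB/cJ. Thbd was highest in BALB/cJ, 0.60 ± 0.07 above C57BL/6J (adjusted p = 1.31e-10) and 0.36 ± 0.07 above DBA/2J. Slc8a2 was lowest in C57BL/6J, exceeded by 0.45 ± 0.07 in DBA/2J and 0.32 ± 0.07 in BALB/cJ.

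Tcim stood 0.38 ± 0.09 higher in DBA/2J than in C57BL/6J and 0.41 ± 0.08 higher in BALB/cJ. With RC libraries alone the DBA/2J difference of Tcim was 0.12 (adjusted p = 0.291), that of Thbd 0.09 (adjusted p = 0.371), against 0.25 over both diets, and that of Pim3 0.19 (adjusted p = 0.0596), against 0.21. Efnb3 was highest in DBA/2J, by 0.27 ± 0.06 over C57BL/6J, and BALB/cJ minus C57BL/6J was 0.11 ± 0.05 (adjusted p = 0.0648). Pim3 in BALB/cJ was -0.09 ± 0.06 from C57BL/6J (adjusted p = 0.201) and -0.30 ± 0.06 from DBA/2J. For Pik3r5 the step from DBA/2J to BALB/cJ, -0.20 ± 0.08 (adjusted p = 0.0233), lost its call without DBA/2J HFD day 13 replicate 2 (adjusted p = 0.0613) or DBA/2J RC day 33 replicate 3 (adjusted p = 0.0532). The same call was lost in the read-based test (-0.19, adjusted p = 0.0552), with HFD libraries alone (-0.15, adjusted p = 0.344) and with endothelial and stellate scores as covariates (-0.10, adjusted p = 0.378), but not with those scores centred within strain (-0.20, adjusted p = 0.0201).

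From day 5 to day 33, averaged over strains and diets, 3 of the 10 genes were called, where 5.46% of all genes were. In no strain did libraries of these days share a number in the sample title. Day and title number therefore cannot be told apart, which holds for the changes within strains as well. Tcim rose by 0.29 ± 0.09 (adjusted p = 0.0335), from a mean of 4.52 at day 5 to 4.79 at day 33. Thbd rose by 0.24 ± 0.07 (adjusted p = 0.0356), from 4.68 to 4.91. Efnb3, the ephrin ligand, fell, at -0.20 ± 0.06 (adjusted p = 0.0192), from 4.30 to 4.11. None of the 3 was called with RC or HFD libraries alone, where the changes were 0.26 and 0.32 for Tcim, 0.18 and 0.31 for Thbd, and -0.18 and -0.23 for Efnb3. The call of Tcim ended in 10 and that of Thbd in 12 of the 69 fits without 1 library, and the Tcim change was 0.09 (adjusted p = 0.824) with the number in the sample title as a covariate and 0.14 (adjusted p = 0.391) with endothelial and stellate scores as covariates.

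Within strains, Thbd in DBA/2J rose by 0.46 ± 0.13 from day 5 to day 33 (adjusted p = 0.0159). Of the 10 genes only Thbd was called in DBA/2J, which is near the 10.2% called among all genes. The DBA/2J means of Thbd went from 4.38 to 4.84 under HFD and from 4.67 to 5.14 under RC. In the DBA/2J HFD day 33 group replicate 1 lay at 5.16, above 4.69 to 4.77 in the others. In BALB/cJ the Thbd change was -0.04 ± 0.12 and in C57BL/6J 0.31 ± 0.13 (adjusted p = 0.27). The change of the 10 genes from day 5 to day 33 was compared between strains as well. Between DBA/2J and C57BL/6J limma called 0 of 10 (1.75% of all genes), with 4 at an unadjusted p under 0.05, Pik3r5, Fxyd6, Slc8a2 and Cd164l2. Between BALB/cJ and C57BL/6J it called 0 (0.0137% of all genes), with 1 unadjusted, and between BALB/cJ and DBA/2J 0 (3.78%), with 3 unadjusted. How many of all genes had an unadjusted p under 0.05 in these comparisons was not counted, so the unadjusted counts have no background beside them. The read-based test, limma with voom, also called 0 in each.

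Genes that act with the 10 were read in the HFD minus RC comparison averaged over the 9 pairs, in which 5.47% of all genes were called, 2.41% higher and 3.06% lower. Of 116 measured partner genes in 9 lists, 6 were called (5.17%), 0 of them higher and 6 lower. In the lists of PI3K, AKT and PIM kinases (16 genes), RhoA, RhoB and their exchange factors (14), ephrins and Eph receptors (17), sodium pump subunits and FXYD proteins (10), calcium exchangers and pumps (10) and thrombomodulin partners with coagulation and fibrinolysis (19), limma called 0 of 86 genes. An unadjusted p under 0.05 was reached by 21 of them, a share that was not counted among all genes, and the read-based test called 1. Pik3cg, the catalytic partner of p101, was at -0.03 ± 0.08, Pim1 at -0.12 ± 0.06, Efnb1 at 0.0013 ± 0.05, Slc8a1 at 0.01 ± 0.05 and Procr, the protein C receptor, at -0.07 ± 0.10. Pim1, Efnb1 and Slc8a1 are family members of Pim3, Efnb3 and Slc8a2. These 5 did not pass the test and were picked after their values were known.

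In the list of matrilins and basement membrane genes no matrilin was measured besides Matn2, which was not counted, so its 14 genes are basement membrane and matrix genes. Of these 4 were called, each lower under HFD, and the list had a median of -0.15 against 0.0004 for all genes. These were Col4a1, a collagen IV chain (-0.24 ± 0.06, adjusted p = 0.00892), the laminin chains Lamb1 (-0.17 ± 0.04, adjusted p = 0.00951) and Lama4 (-0.17 ± 0.04, adjusted p = 0.0157), and Nid2, which links laminin to collagen IV (-0.16 ± 0.05, adjusted p = 0.0456). Matn2 is a neighbour of these by function. Among sialomucins 1 of 6 was called, Cd34 of endothelium and progenitor cells (-0.19 ± 0.05, adjusted p = 0.0146). Of the beta-catenin partners and Wnt target genes 1 of 10 was called, Ctnnb1 itself, beta-catenin (-0.12 ± 0.02, adjusted p = 0.000252). Without the day 5 libraries 0 of the 116 were called, where 0.137% of all genes were, and the call of Nid2 ended in 43 of the 69 fits that left out 1 library.

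Of 85 measured cell type markers 12 were called between diets (14.1%, against 5.47% of all genes), 2 higher and 10 lower under HFD. The 2 higher were Pyy of the PP and epsilon list (0.48 ± 0.07, adjusted p = 2.97e-05) and Fabp4, the adipocyte fatty acid binding protein (0.51 ± 0.10, adjusted p = 0.000961). Of the 6 genes of the adipocyte list only Fabp4 was measured. Ucn3, the urocortin of mature beta cells (-0.14 ± 0.04), and Lyz2 of macrophages (-0.56 ± 0.17) were among the lower. Of 12 measured stellate cell and fibroblast markers 4 were called lower under HFD: Col1a1 (-0.65 ± 0.18), Col1a2 (-0.42 ± 0.12), Col3a1 (-0.57 ± 0.14) and Rgs5 (-0.17 ± 0.04). Their summed level was 255.5 to 754.1 CPM under RC (median 372.2) and 168.5 to 652.7 under HFD (median 313.2). In C57BL/6J it was 255.5 to 417.1 under RC (median 303.5) and 168.5 to 297.1 under HFD (median 228.6). Its medians under RC and HFD were 368.8 and 314.6 in DBA/2J, and 504.8 and 425.1 in BALB/cJ. Of 11 endothelial markers Pecam1 (-0.14 ± 0.04) and Cdh5 (-0.15 ± 0.05) were called lower, and the median difference of the list was -0.03. The sums of this list overlapped widely, at 612.6 to 1023 under RC (median 810.7) and 567.9 to 1085 under HFD (median 803.9). Among Schwann cell markers Mbp was called lower, and the list had sums of 96.45 to 148.5 under RC and 82.12 to 127.6 under HFD. Pecam1, Cdh5, Col1a1, Col1a2 and Sox10 were above the lowest value of the table in every library.

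Held at equal endothelial and stellate cell marker levels, the HFD minus RC difference of Matn2 was -0.17 in place of -0.32 and that of Thbd -0.22 in place of -0.33. That of Tcim was -0.46 in place of -0.51, and the 7 genes higher under HFD lay between 0.18 and 0.25. The part of these cells in the differences was not tested further.

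Mouse-to-mouse variation inside the groups was read for the 10 genes as well. The choice of genes used group means and not this variation. However, genes that vary together between mice also have group means that vary together. The pattern of signs below is therefore not independent of the choice, and it was not compared with genes chosen in the same way. Each value was taken as its deviation from the mean of its group, over 69 libraries. The 7 genes higher under HFD gave 21 pairs, all with a positive Pearson r, from 0.08 to 0.57 with a median of 0.45. The 3 lower genes gave 3 pairs at 0.37 to 0.67. The 21 pairs of a higher and a lower gene were all negative, from -0.53 to -0.09 with a median of -0.32. Within single strains, 0 of these 21 were positive in C57BL/6J, 5 in DBA/2J and 3 in BALB/cJ. For comparison, 49.3% of all 106631106 gene pairs were positive, and the 5th and 95th percentiles were -0.436 and 0.46.

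Thbd and Matn2 were the closest of the lower genes, at r = 0.67 and rho = 0.66 (permutation p = 1e-05 for each, the smallest the 100000 permutations can give, adjusted over 45 pairs 0.00045 and 0.000225). Without the 2 most distant libraries r was 0.63, and by strain it was 0.69 in C57BL/6J, 0.48 in DBA/2J and 0.70 in BALB/cJ. Tcim joined them in C57BL/6J, at 0.77 with Thbd and 0.72 with Matn2, but in BALB/cJ it was at 0.07 and 0.01. DBA/2J had the loosest ties among the 7 higher genes, with a median r of 0.22 and 17 of 21 pairs positive, against 0.56 and 20 in C57BL/6J and 0.41 and 21 in BALB/cJ. With library depth and the number in the sample title removed, chosen as an alternative after seeing the data, the medians were 0.43, 0.47 and -0.29 for the 3 kinds of pair. Efnb3 deviated with the title number at r = -0.36 and Thbd at 0.32, and Pik3r5 with depth at 0.35.

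**Figure D4:**
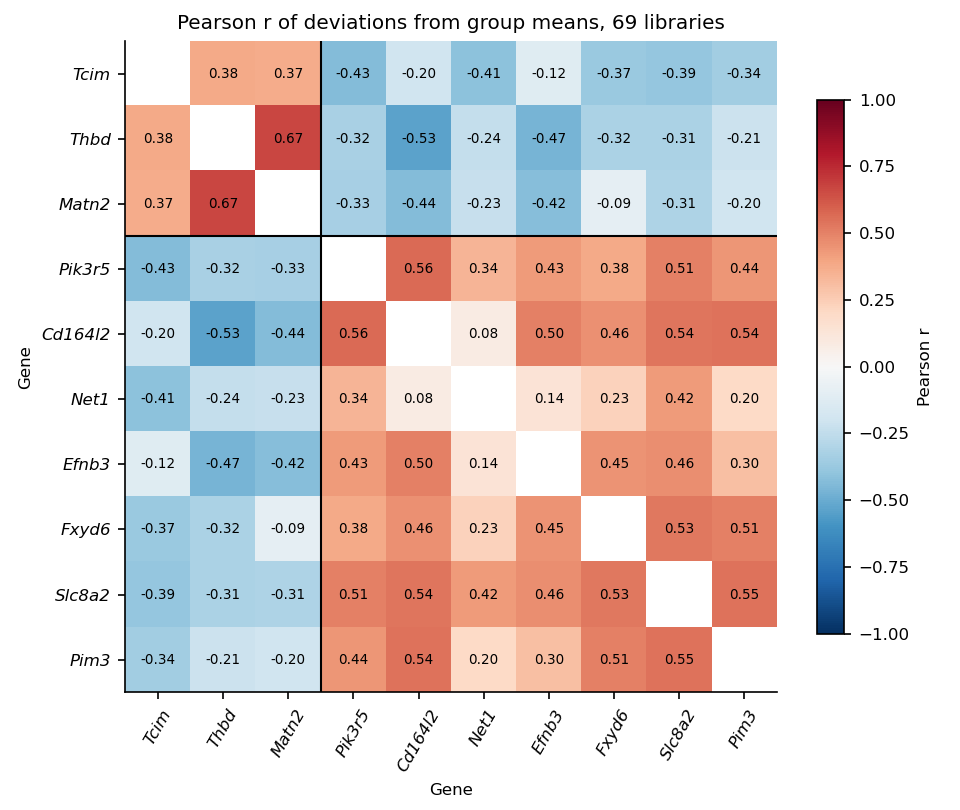
Pearson r between each pair of the 10 genes (both axes) over deviations of 69 libraries from their group means, with lines between the 3 genes lower and the 7 higher under HFD. Pairs within a block are positive (0.08 to 0.67) and pairs across blocks negative (-0.53 to -0.09).

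The pattern can be followed mouse by mouse. In BALB/cJ HFD day 5, replicates 1 and 2 had Net1 at 5.00 and 4.94, Slc8a2 at 3.70 and 3.78 and Pik3r5 at 2.52 and 2.65. Replicates 3 and 4 had Net1 at 4.11 and 4.09, Slc8a2 at 3.08 and 3.04 and Pik3r5 at 1.94 and 1.91. Matn2 and Thbd ran the other way in the same mice, with Matn2 at 2.69, 2.21, 3.39 and 3.37 and Thbd at 4.68, 4.58, 5.21 and 5.13 in replicates 1 to 4. In C57BL/6J HFD day 13 replicates 3 and 4 had Tcim at 3.08 and 3.24 and Matn2 at 3.74 and 3.31, where replicates 1 and 2 had Tcim at 4.43 and 4.16 and Matn2 at 4.50 and 4.58. In both groups the mice of replicates 1 and 2 had lower title numbers than those of replicates 3 and 4, and the part of this in the split was not tested. These 2 groups were picked after their values were seen.

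The same deviations were set against the mean level of 12 cell type marker lists, 120 relations in all. Matn2 followed the stellate cell and fibroblast list at r = 0.64 (rho = 0.66; permutation p = 1e-05 for both, the smallest possible; adjusted p = 0.0003 and 0.0004), and at 0.62 without the 2 most distant libraries. By strain this was 0.41 in C57BL/6J, 0.72 in DBA/2J and 0.90 in BALB/cJ. Matn2 also followed the Schwann cell list (0.58), the endothelial list (0.55) and the macrophage list (0.40). Thbd, an endothelial gene by description, was at 0.47 with the endothelial list (rho = 0.47; permutation p = 0.00022 and 0.00061; adjusted p = 0.00377 and 0.0093) and at 0.58 with the stellate cell list. By strain its endothelial r was 0.73 in C57BL/6J, 0.42 in DBA/2J and 0.35 in BALB/cJ.

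The genes higher under HFD had other ties. Efnb3 was at r = 0.50 (rho = 0.44; permutation p = 0.00055 and 0.00232; adjusted p = 0.00825 and 0.0278) and Cd164l2 at 0.44 with the delta cell list, Sst and its companions. In BALB/cJ these were 0.66 and 0.64, and in C57BL/6J 0.37 and 0.31. Net1 ran against the beta cell list at -0.45 (rho = -0.54; permutation p = 0.00012 and 5e-05; adjusted p = 0.0024 and 0.001), and did so in each strain (-0.36 in C57BL/6J, -0.48 in DBA/2J and -0.60 in BALB/cJ). Fxyd6 was at 0.38 with the PP and epsilon cell list, and Tcim at 0.40 with the ductal list. Slc8a2, Pik3r5 and Pim3 had no relation with an adjusted p under 0.05 in r, and 12 of the 120 had one.

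**Figure D5:**
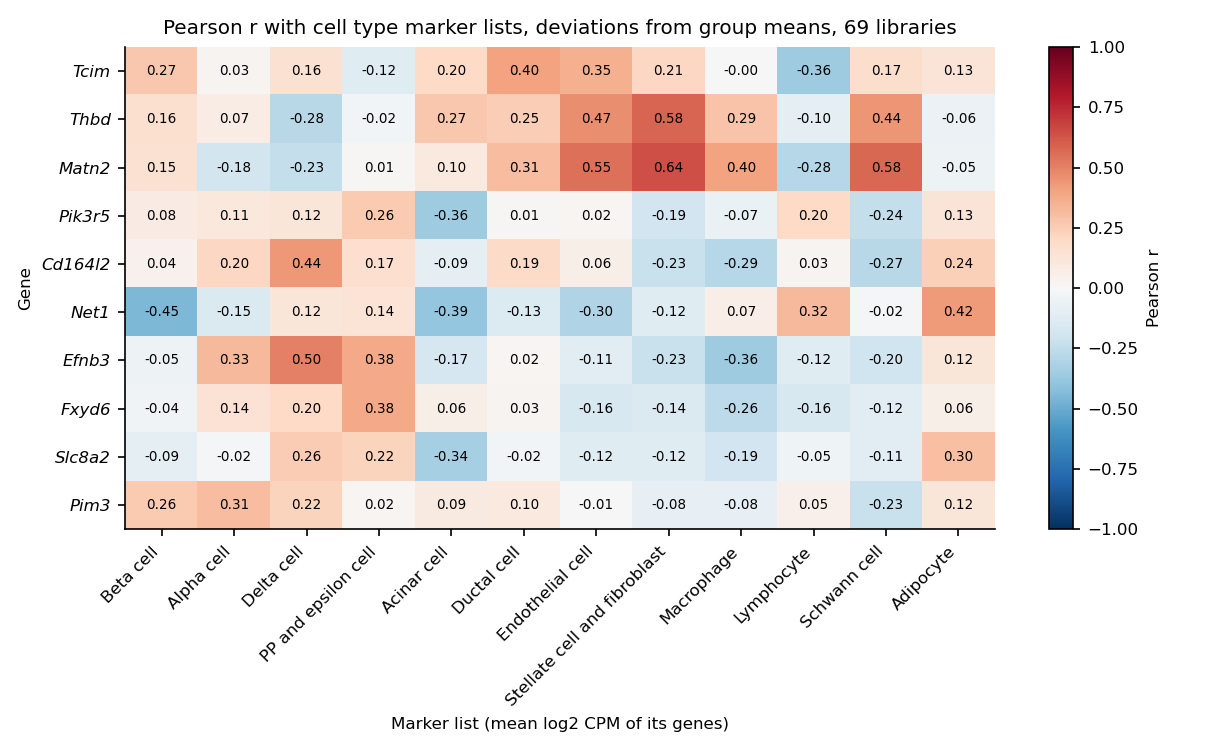
Pearson r between each gene (y axis) and the mean level of 12 cell type marker lists (x axis), over deviations of 69 libraries from their group means. Matn2 and Thbd are at 0.58 to 0.64 with the stellate cell and fibroblast list, Efnb3 at 0.50 with the delta cell list and Net1 at -0.45 with the beta cell list.

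The genes whose deviations were most like those of each member were read as a description over the same 69 libraries. Matn2 was nearest to Sparc (r = 0.76), Igfbp5 and Mgp, which encode secreted matrix-associated proteins, and Thbd to Igfbp5 (0.73), P3h2 and Slco3a1. Tcim was nearest to Nfil3 (0.71), a transcription factor of the circadian clock, at 0.79 in C57BL/6J and in BALB/cJ but 0.06 in DBA/2J. Net1 was nearest to Fam107a (0.72), Ogfrl1 and Fkbp5, a gene induced by glucocorticoids (0.70). Fkbp5 too was near 0 in DBA/2J (-0.04), against 0.86 in C57BL/6J and 0.85 in BALB/cJ.

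Cd164l2 had the tightest likeness of the 10, at 0.86 with Zdhhc4, 0.82 with Gpd1, glycerol-3-phosphate dehydrogenase, and 0.81 with Cryba2, and these held in each strain at 0.77 to 0.90. Pik3r5 was nearest to Rgs12 (0.74), a regulator of G protein signalling, and Slc8a2 to Slc29a4 (0.74), a monoamine transporter. Efnb3 was nearest to Ctc1 (0.71) and Cacna1h (0.70), a T-type calcium channel. Fxyd6 came nearest to Cldn4 (0.70), a tight junction protein, and Pyy (0.68), the peptide YY gene of the PP and epsilon list. Pim3 was nearest to Arf3 (0.70), Tsen34 and Kctd13.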

How the data were processed

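The authors deposited normalized log2 CPM values of 14604 genes, and 69 of the 72 labelled samples had a column; the other 3 were not analysed here. Per the submitters' processing notes the tools were STAR 2.5.3a, HTSeq 0.9.1 and edgeR (no version), on GRCm38. The lowest value was -3.54 log2 CPM (0.0862 CPM). Taken from there, 100% of the values up to 1000 reads came out as whole reads (tolerance 0.05 reads), which served a read-based alternative, limma with voom. Identifiers matched GENCODE mouse release 21 for 14589 genes. Days follow the sample labels (5, 13 and 33), since the series text repeats day 13, and the label C56BL/6J was taken to mean C57BL/6J.

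With limma 3.58.1 (R 4.3.3), lmFit estimated a mean for each of the 18 groups from the 69 libraries, followed by eBayes with trend. Two-sided p-values were Benjamini-Hochberg adjusted over all genes within a contrast, with 0.05 as the threshold. The model was tested on simulated data. Correlations use deviations from group means, with 100000 permutations within groups. Each library is 1 mouse per the labels, so p-values measure the spread between mice. Replicates were numbered in accession order. Gene positions come from the annotation, and promoters from RefSeq.

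The 10 genes and the gene lists were chosen with earlier results of these data known. Some genes of the lists are not reported here by name. Genes of the partner lists are named where they passed the threshold, at most 4 a list, apart from 5 named after their values were seen, and likeness names the 3 genes with the highest r, leaving out predicted, Rik and non-coding genes and the lowest 25% by level. Alternatives were library median centring, log2(CPM + 1), the low-level filter, array weights, title number, single diets, left-out days or libraries, marker scores and voom. Scores centred within strain, correlations with depth and title number removed, and title number as a block were added after seeing the data.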

Additional observations from a re-analysis of the deposited data

Results flagged for a closer look

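In 8 cases a library stood apart from the other 3 of its group in 1 of the 10 genes, among 150 groups of 4 tested. Chance flags about 1 in 20 groups, so 8 of 150 is near that share. Net1 was at 4.18 in DBA/2J RC day 13 replicate 4, above 3.94 to 3.97 in the others, and at 4.52 in BALB/cJ RC day 13 replicate 4, above 3.80 to 3.85. Fxyd6 was at 6.25 in BALB/cJ RC day 5 replicate 3, above 5.78 to 5.81, and Slc8a2 at 3.76 in DBA/2J HFD day 5 replicate 1, above 3.51 to 3.54. Pim3 was at 4.63 in DBA/2J RC day 5 replicate 1, below 4.90 to 4.94. Thbd was at 5.16 in DBA/2J HFD day 33 replicate 1, above 4.69 to 4.77, and at 5.55 in BALB/cJ RC day 5 replicate 4, above 5.20 to 5.24. Matn2 was at 4.72 in DBA/2J HFD day 5 replicate 1, below 5.11 to 5.18, the library that was high for Slc8a2.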

How the results depend on the processing

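With endothelial and stellate scores as covariates the genes called fell to 4 for DBA/2J minus C57BL/6J and 5 for BALB/cJ minus C57BL/6J, where 30% and 31.6% of all genes were called, and Tcim in the first turned to -0.0075; with the scores centred within strain, an alternative added after seeing the data, these counts were 10 and 8. For day 33 minus day 5 the count was 0 with RC alone, 0 with HFD alone and 1 with either kind of score. Array weights gave 4 genes for the day change of DBA/2J against C57BL/6J, 3 for BALB/cJ against DBA/2J, 25 partner genes and 22 marker genes (12 without weights), where it called 18.9%, 19.3% and, between diets, 20.9% of all genes. Without day 5, 0 partner and 1 marker gene were called, without day 13, 3 partner genes, and with either kind of score 4 marker genes. The cause of these shifts was not tested.

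Small differences changed sign. The day change of Pik3r5 was -0.0453 with title number, -0.015 with HFD alone and -0.0662 with scores of either kind; of Cd164l2 -0.1826, -0.021 and -0.0963; of Slc8a2 -0.0422 with title number and -0.0105 with HFD alone; of Matn2 0.0689 with title number. That of Net1 was 0.0034 with RC alone and 0.0464 with scores, and that of Fxyd6 0.0042 with median centring, 0.0444 with array weights, 0.0356 with RC alone and 0.02 with scores. BALB/cJ minus DBA/2J was -0.17 for Tcim with HFD alone and -0.0604 for Net1 with RC alone.

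Leaving out 1 library gave 1 to 3 genes for day 33 minus day 5, 0 to 2 for the day change of DBA/2J against C57BL/6J (2 without C57BL/6J HFD day 33 replicate 1, 1 without DBA/2J RC day 33 replicate 2), 0 to 1 for BALB/cJ against DBA/2J (1 without BALB/cJ HFD day 5 replicate 2) and 5 to 12 partner genes (11 without C57BL/6J HFD day 13 replicate 2, 12 without C57BL/6J HFD day 33 replicate 1). The day change of Fxyd6 ran from -0.0246 to 0.0174. Only 1 gene was called for day 33 minus day 5 without C57BL/6J HFD day 5 replicate 3, RC day 5 replicate 2, HFD day 33 replicate 3, RC day 33 replicate 1 or 2, BALB/cJ HFD day 5 replicate 2 or HFD day 33 replicate 1. Efnb3 in BALB/cJ minus C57BL/6J became called in 9 of 69 such fits (adjusted p = 0.0265 to 0.0499). The number in the sample title recurs across strains, and across diets except in C57BL/6J at day 5. It is not shared between day 5 and day 33. As a replicate block, added after seeing the data, it left 10, 8 and 6 genes called for the strain differences, 3 for day 33 minus day 5, 0 for each day change, 6 partner genes and 12 marker genes. Of 21 HFD and RC libraries paired by number within a strain and day, 9 pairs had an r of deviations above 0.1 (-0.287 to 0.349), and in 8 the HFD library correlated best with its own number, so the number was not taken to pair mice. As a linear covariate it cut the genes called between diets from 799 to 444.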
